A study of Mus musculus with 16 samples.

Results

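The 31 genes described here encode glycolytic enzymes and their regulators, transporters for glucose, lactate and amino acids, the transferrin receptor, 2 enzymes of mitochondrial one-carbon metabolism and the transcription factors Myc and Hif1a. They were chosen by name for these roles, and each of the 31 was found among 26180 genes with curated RefSeq transcripts on the mm10 assembly. The peak lists came from CD8+ T cells of the spleens of OT1 mice, which carry a transgenic T cell receptor. Activation through CD3 and CD28 antibodies lasted 48 h in the presence of IL-2 and was followed by 3 days of expansion in IL-2. Either GSK2879552 (GSK, 0.5 μM), an irreversible inhibitor of the demethylase LSD1, or vehicle (Veh) was present throughout. Chromatin immunoprecipitation sequencing (ChIP-seq) was carried out for RNA polymerase II (Pol II), for LSD1 and for the histone marks H3K4me1, H3K4me2, H3K4me3 and H3K27ac, with 1 library for each antibody and treatment. The series holds 16 samples, of which 4 are inputs without a peak list.

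Activated CD8+ T cells take up more glucose and amino acids than resting cells and convert much of the glucose to lactate even when oxygen is present. Glucose enters through Slc2a1 and Slc2a3, is phosphorylated by hexokinase and committed to glycolysis by phosphofructokinase, and the pyruvate formed is either reduced to lactate by Ldha or oxidised in mitochondria. Myc and Hif1a are known activators of many of these genes. LSD1 is a demethylase whose substrates are H3K4me1 and H3K4me2, H3K4me3 and H3K27ac mark active promoters, and Pol II transcribes the genes.

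A promoter here is the 1 kb on either side of any curated transcription start site (TSS) of a gene, and a gene was called when a peak overlapped it by at least 1 bp. The fold enrichment of a peak over background, as deposited, was ranked within its own list as the percentage of peaks with an equal or lower fold, and a gene took its peak with the highest fold. With 1 library in each group there was no spread between replicates, so no difference between Veh and GSK could be tested, and counts are read beside the share of all genes called in the same list. Lists ran from 2751 peaks for GSK H3K27ac to 40272 for GSK H3K4me1, and a list lengthens with sequencing depth. The study lists more unique read pairs in Veh than in GSK for LSD1, H3K4me2 and H3K27ac, and fewer for H3K4me1, H3K4me3 and Pol II. The gap was by far the largest for H3K27ac and was small for LSD1 and H3K4me3. Where a gene has several start sites, its best peaks in Veh and GSK can lie at different ones. T cell markers carried H3K4me3 at 6 of 6 promoters in both treatments, and none of the CD4, B cell, myeloid or NK cell markers did. The windows of 4 genes also hold the start of another gene, which is BC048644 for Slc7a5, Snhg1 for Slc3a2, Hk1os for Hk1 and Senp1 for Pfkm, and peaks there cannot be told apart between the neighbours.

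The promoters on which the results below turn most are printed as the 250 bases before a TSS, from RefSeq on GRCm38.p6, 5′ to 3′ on the strand of the gene. Slc16a3, Pkm and Pfkfb3 had the highest LSD1 rank in Veh among transporters, enzymes and regulators. Tfrc and Eno1 were the highest in GSK of the genes with an LSD1 peak only there whose window holds no other gene's start, and Gpi1 had a peak only in Veh. Capitals mark matches, on either strand, to CACGTG (the E-box, bound by Myc), ACGTG and GCGTG (cores of the hypoxia response element, bound by Hif1a), GGGCGG (the GC box), TGANTCA (the AP-1 site) and CCAAT. Every CACGTG also holds ACGTG.
Slc16a3 (chr11:120948817-120949066, plus strand): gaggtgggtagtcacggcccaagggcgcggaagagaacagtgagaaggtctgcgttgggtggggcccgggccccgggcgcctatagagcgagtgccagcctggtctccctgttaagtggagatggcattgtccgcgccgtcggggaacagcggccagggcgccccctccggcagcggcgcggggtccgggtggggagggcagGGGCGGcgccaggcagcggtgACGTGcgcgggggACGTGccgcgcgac
Pkm (chr9:59656326-59656575, plus strand): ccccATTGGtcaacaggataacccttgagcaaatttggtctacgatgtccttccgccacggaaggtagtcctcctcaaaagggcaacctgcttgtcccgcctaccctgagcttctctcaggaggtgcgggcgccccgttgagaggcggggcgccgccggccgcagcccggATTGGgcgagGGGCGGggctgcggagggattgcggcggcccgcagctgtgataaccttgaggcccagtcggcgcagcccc
Pfkfb3 (chr2:11502091-11502340, minus strand): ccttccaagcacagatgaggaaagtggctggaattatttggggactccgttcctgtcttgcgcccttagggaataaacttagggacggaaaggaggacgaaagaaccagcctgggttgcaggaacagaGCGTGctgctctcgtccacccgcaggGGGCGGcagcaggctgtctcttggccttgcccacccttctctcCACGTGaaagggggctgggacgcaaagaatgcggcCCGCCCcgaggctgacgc
Tfrc (chr16:32608646-32608895, plus strand): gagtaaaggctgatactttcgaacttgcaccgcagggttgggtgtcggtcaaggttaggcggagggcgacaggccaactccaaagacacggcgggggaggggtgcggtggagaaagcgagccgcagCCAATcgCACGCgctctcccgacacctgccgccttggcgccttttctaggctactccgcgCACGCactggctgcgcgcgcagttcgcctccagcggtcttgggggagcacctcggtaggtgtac
Eno1 (chr4:150236458-150236707, plus strand): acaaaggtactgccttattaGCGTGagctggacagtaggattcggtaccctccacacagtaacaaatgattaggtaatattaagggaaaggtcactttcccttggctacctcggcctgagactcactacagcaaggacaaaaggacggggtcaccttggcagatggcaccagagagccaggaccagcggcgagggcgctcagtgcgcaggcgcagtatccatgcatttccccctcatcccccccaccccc
Gpi1 (chr7:34230337-34230586, minus strand): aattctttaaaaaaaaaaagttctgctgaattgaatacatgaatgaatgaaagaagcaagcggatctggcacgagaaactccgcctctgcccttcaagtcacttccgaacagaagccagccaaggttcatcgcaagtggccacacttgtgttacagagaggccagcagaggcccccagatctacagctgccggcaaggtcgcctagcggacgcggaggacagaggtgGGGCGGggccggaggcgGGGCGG
The LSD1 summit lay inside the printed bases of Slc16a3, Pkm and Gpi1. For Pfkfb3, Tfrc and Eno1 it lay downstream of the TSS, outside them.

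The promoter table held 27 of the 31 genes, and Slc7a5, Slc1a5, Myc and Slc2a3 had no entry. A gene counted when any of its entries held the motif. Over windows of 300 bases at each TSS, ACGTG occurred in 16 of these 27 genes (59.3%), against 21.8% of all genes in the table, 19.6% of all its promoters and 30.2% of genes with a Veh H3K4me3 promoter peak. GCGTG occurred in 17 genes (63%), beside 35.2% of all genes, 32.4% of promoters and 57.7% of genes with H3K4me3. The GC box occurred in 20 genes (74.1%), beside 38.2%, 35.7% and 70.9%. CCAAT occurred in 12 genes (44.4%), beside 41.1%, 37.4% and 42.8%. The full E-box was found in Slc16a1, Pfkm, Ldha, Pfkfb3 and Hif1a (18.5%), beside 8.09%, 7.15% and 12%, and the AP-1 site in Aldoa alone (3.7%), beside 8.97%, 7.81% and 5.63%. The ACGTG core was thus the motif whose share stood farthest above that of genes with H3K4me3, and it was found at Slc2a1, Hk2, Ldha, Pgk1, Gapdh and Pkm among others. A match is a description of the letters and not of binding.

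Nearly all of these promoters carried H3K4me3 and Pol II, while LSD1, H3K4me2 and H3K27ac divided them. H3K4me3 peaks lay at 31 of 31 promoters in both treatments, where 50% of all genes were called in Veh and 51.1% in GSK. None was called in 1 treatment only, which in all genes was true of 0.332% for Veh and 1.47% for GSK. Pol II was called at 29 of 31 promoters in Veh (29.3% of all genes) and 25 in GSK (24.9%). The share of genes called is plotted for each list beside 2 backgrounds, all genes and the 13084 genes with Veh H3K4me3.

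**Figure D1:**
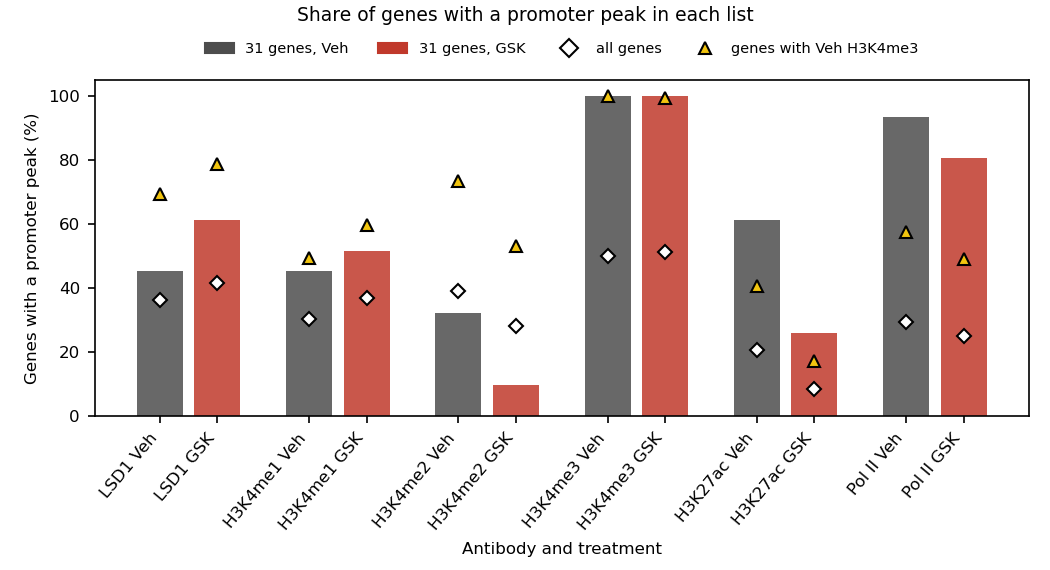
Percentage of genes with a promoter peak (vertical axis) in each antibody and treatment (horizontal axis), with bars for the 31 genes in Veh (grey) and GSK (red), diamonds for all 26180 genes and triangles for the 13084 genes with Veh H3K4me3. The Pol II and H3K27ac bars stand above both backgrounds, and the LSD1 and H3K4me2 bars stand below the triangles.

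**Figure D2:**
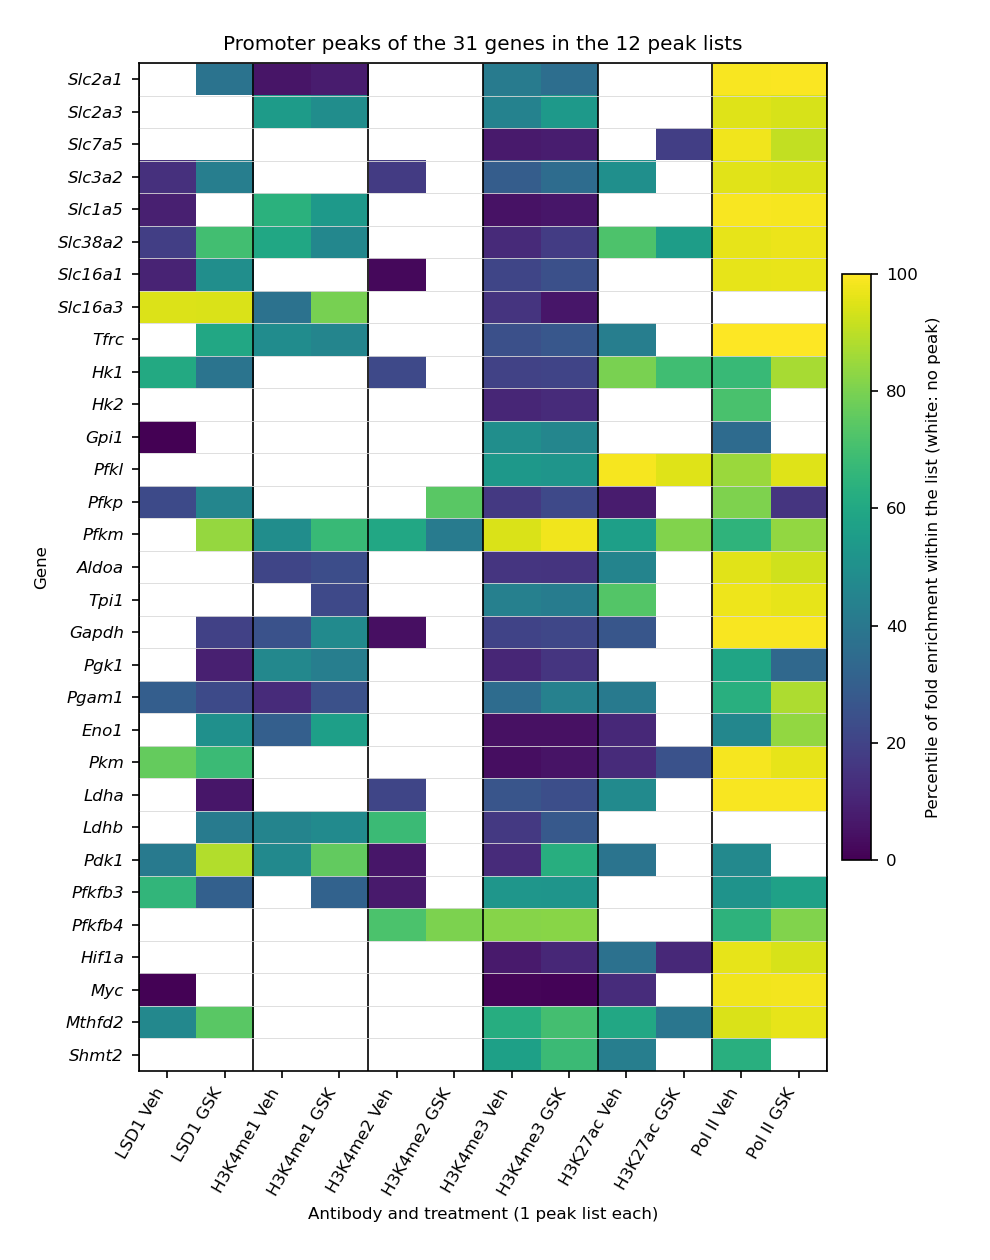
Each row is 1 of the 31 genes and each column 1 peak list. Colour gives the percentile of fold enrichment of the promoter peak within its list, and white means that no peak was called. The Pol II columns are mostly near 100, the H3K4me3 columns are filled but mostly low, and the H3K4me2 and GSK H3K27ac columns are mostly white.

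Pol II was the antibody with the highest ranks. The median percentile of the called genes was 95.2 in Veh and 94.6 in GSK, beside 76.5 and 79.0 over all genes with a Pol II promoter peak. A percentile of 90 or more was found at 16 genes in Veh and 17 in GSK. Of the 13084 genes with Veh H3K4me3, 1691 in Veh and 1609 in GSK had such a percentile. Tfrc, the receptor for iron-loaded transferrin, had the highest fold, 17.5 in Veh and 15.5 in GSK, at percentile 99.8 in both. The glucose transporter Slc2a1 followed at 13.5 and 11.4, with Ldha, which makes lactate, at 12.95 and 10.5, the glutamine transporter Slc1a5 at 12.8 and 9.59, and the glycolytic enzyme Gapdh at 12.5 and 10.5. These 5 genes had the highest Pol II folds of the 31 in both lists. Pkm, which makes pyruvate, had folds of 11.7 and 7.18, and Myc 10.4 and 8.61.

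Transporters ranked high as a group in Pol II. The 2 glucose transporters had a median percentile of 97.2 in Veh and 96.6 in GSK, and the 4 amino acid transporters 97.0 and 95.8. Slc7a5 and Slc3a2 form the heterodimer that imports large neutral amino acids. The Slc7a5 fold was 10.2 in Veh and 5.64 in GSK, and Slc3a2 had 8.46 and 5.66 at one of its start sites and 6.48 and 6.42 at the other. The glutamine and alanine carrier Slc38a2 had 8.87 and 7.61. Of the lactate carriers, Slc16a1 had 9.06 and 7.29 and Slc16a3 had no Pol II peak in either list. Slc2a3 had 8.397 and 6.26.

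The steps of glycolysis differed more among themselves. Upstream, Tpi1, which interconverts the triose phosphates, had Pol II folds of 9.76 in Veh and 7.22 in GSK, and the aldolase Aldoa 8.57 and 5.96. Pfkl and Hk1 had 6.16 and 4.68 in Veh, and 6.57 and 5.12 in GSK. The platelet phosphofructokinase Pfkp differed most in rank, with a fold of 5.69 at percentile 80.6 in Veh and 2.99 at percentile 15.5 in GSK. In the other direction the enolase Eno1 had 3.84 at percentile 46.4 in Veh and 4.80 at 83.8 in GSK, and Pgam1 had 4.45 at 63.2 and 5.19 at 87.8. Pgk1, the only one of these genes on the X chromosome, had 4.26 in Veh and 3.17 in GSK, from peaks that did not overlap, with summits at -268 and 605 bp from the TSS. Veh had 2 Pol II peaks in this window, and the other one ran downstream, to 67 bp beyond the window.

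Pol II was called in Veh only at 4 genes and in GSK only at none. They were Hk2, the inducible hexokinase (fold 4.91, percentile 71.3 in Veh), Shmt2 (4.45, 63.1), which feeds one-carbon units from serine, Pdk1 (3.85, 46.9), the kinase that inhibits pyruvate dehydrogenase, and the isomerase Gpi1 (3.52, 34.9). All genes were called in Veh only at 7.33% and in GSK only at 2.94%, and genes with Veh H3K4me3, as all members are, at 13.8% and 5.12%. The −log10 p values of these 4 peaks were 8.91, 7.74, 5.87 and 5.51, and the list starts at 3.00. At a −log10 q of 5 or more, Pol II was called at 19 genes in Veh and 21 in GSK. Hk2 and Pfkp were then called in Veh only, and Hk1, Pfkm, Pgam1 and Eno1 in GSK only. That cutoff left 4927 Veh and 3411 GSK peaks. The share of all genes was not counted there, so these calls do not set the members apart. Ldhb, the lactate dehydrogenase subunit of oxidative tissues, joined Slc16a3 in having no Pol II call in either list.

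Where Pol II was called in both treatments, the fold was higher in GSK at 6 of 25 genes, beside 17.6% of the 5759 such genes overall. The percentile was higher in GSK at 14 of 25, beside 48.2% of all. The 6 with the higher fold were Hk1, Pfkl, Pfkm, Pgam1, Eno1 and Pfkfb4. A lower Pol II fold in GSK was thus common to all genes.

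H3K4me3 peaks at these genes were wide and of low fold. Their median width was 2137 bp in Veh and 1883 bp in GSK, against 1261 bp and 1240 bp over all genes with a promoter peak. The median percentile of width was 93.8 and 90.6, and 20 genes in Veh and 19 in GSK had a width percentile of 90 or more. Of the 13084 genes with Veh H3K4me3, 1974 in Veh and 2068 in GSK had such a width. The median percentile of fold was 20.2 and 24.6, against 55.8 and 56.7 over all genes. By −log10 p the medians were 71.4 and 73.5 against 65.0 and 66.5 over all genes, so the low rank held for fold and not for −log10 p. Among all genes of that width the median fold percentile was 18.1 in Veh and 17.8 in GSK, and among the members there it was 13.8 and 15.6.

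**Figure D3:**
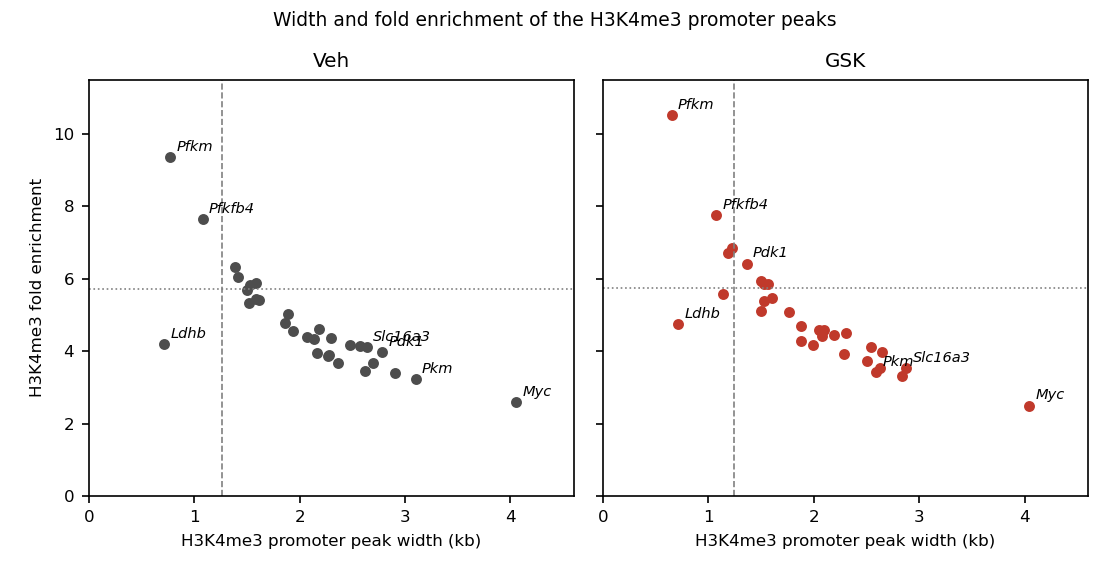
Fold enrichment (vertical axis) against width in kb (horizontal axis) of the H3K4me3 promoter peak of each of the 31 genes, in Veh (left) and GSK (right). Dashed lines give the median width over all genes with a promoter peak and dotted lines the median fold of all peaks of the list; most points lie right of the dashed and under the dotted line, with Myc at the far right.

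Myc had the widest H3K4me3 peak of the 31 in both treatments, 4052 bp in Veh and 4041 bp in GSK, and the lowest fold, 2.593 and 2.498. Pkm (3102 and 2593 bp), Eno1 (2909 and 2840 bp) and Slc7a5 (2696 and 2502 bp) were also wide. The muscle phosphofructokinase Pfkm had the highest fold, 9.37 in Veh and 10.5 in GSK, in a narrow peak of 771 and 653 bp at start sites other than the one near Senp1. Pfkfb4, which sets the level of a phosphofructokinase activator, followed at 7.66 and 7.76, the one-carbon enzyme Mthfd2 at 6.32 and 6.84, Shmt2 at 6.04 and 6.72, and Pfkl at 5.88 and 5.86. Ldhb was narrow (713 and 716 bp) with a fold of 4.19 and 4.75.

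The H3K4me3 rank was higher in GSK at 21 of 31 genes, beside 55.2% of the 12997 genes called in both lists. The median change of the 31 was 1.59 percentile points, beside 0.541 over all genes. By −log10 p it was higher in GSK at 14 of 31. Pdk1 changed most, with a percentile higher by 50.4 points in GSK. Its peak had a fold of 3.97 over 2783 bp in Veh and 6.42 over 1365 bp in GSK, and its −log10 p was 43.5 and 101. The largest change in the other direction was that of Slc16a3, from a fold of 4.11 to 3.53.

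LSD1 was called at 14 of 31 promoters in Veh (36.3% of all genes) and at 19 in GSK (41.6%). The shares of 45.2% and 61.3% were above those of all genes and below those of genes with Veh H3K4me3, of which 69.2% had LSD1 in Veh and 78.6% in GSK. Of all genes with Veh H3K4me3 and a Pol II percentile of 90 or more, 74.6% had LSD1 in Veh, and of the 16 members among them 7 had it. In GSK the values were 86.3% and 9 of 17 members. The median LSD1 percentile was 26.1 in Veh and 46.1 in GSK, beside 57.6 and 64.1 over all genes with a peak. Ranked by −log10 p it was 42.4 in Veh and 58.2 in GSK, beside 58.2 and 64.2 over all genes with a peak. The members thus stood less far below all genes by −log10 p than by fold.

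An LSD1 peak was present in both treatments at 11 genes. Slc16a3, the lactate exporter, had the highest fold, 7.51 in Veh and 7.54 in GSK, at percentiles 94.6 and 94.2, and it was a promoter without Pol II or H3K27ac. Pkm followed at 5.24 and 5.16, Hk1 at 4.56 and 4.13, and Mthfd2 at 4.10 and 5.49. Pfkfb3, the inducible counterpart of Pfkfb4, had 4.74 in Veh, and the other 6 had Veh folds from 3.16 at Slc16a1 to 3.97 at Pdk1. Slc38a2, at percentile 18.5 in Veh and 69.8 in GSK, and Pdk1, at 40.7 and 88.4, ranked higher in GSK. The best Pfkfb3 peaks lay at different start sites, with folds of 4.74 in Veh and 3.305 in GSK at one and of 3.13 and 3.89 at the other. Fold was higher in GSK at 8 of the 11, beside 72.2% of the 8348 genes called in both lists.

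LSD1 was called only in GSK at 8 genes, against 9.74% of all genes and 16.7% of genes with Veh H3K4me3, and only in Veh at 3, against 4.44% and 7.26%. Pfkm had a fold of 6.13 (percentile 84.2), Tfrc 4.84 (59.9), Eno1 4.47 (50.2), Ldhb 4.22 (41.6), Slc2a1 4.11 (37.9), Gapdh 3.61 (19.2), Pgk1 3.29 (8.62) and Ldha 3.18 (6.13). Their −log10 p ran from 4.08 at Pgk1 to 14.7 at Pfkm. Of the 5 genes of the lower glycolytic steps, LSD1 was called at 2 in Veh and 5 in GSK, beside 69.2% and 78.6% of genes with Veh H3K4me3, and the calls at Pgk1 and Gapdh were low in the GSK list. The Veh-only genes were near the foot of their list, with Slc1a5 at a fold of 3.10 (percentile 8.83), Myc at 2.61 (0.419) and Gpi1 at 2.54 (0.207). With the Veh list shortened to the 19919 peaks of the GSK list, Gpi1 left the Veh-only genes. At a −log10 q of 5 or more LSD1 was called at 4 genes in Veh and 9 in GSK, and of the GSK-only genes Tfrc, Pfkm and Eno1 were among those called only there. That cutoff left 7538 Veh and 7890 GSK peaks, and the share of all genes was not counted there. Slc2a3, Slc7a5, Hk2, Pfkl, Aldoa, Tpi1, Pfkfb4, Hif1a and Shmt2 had no LSD1 promoter peak in either list.

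**Figure D4:**
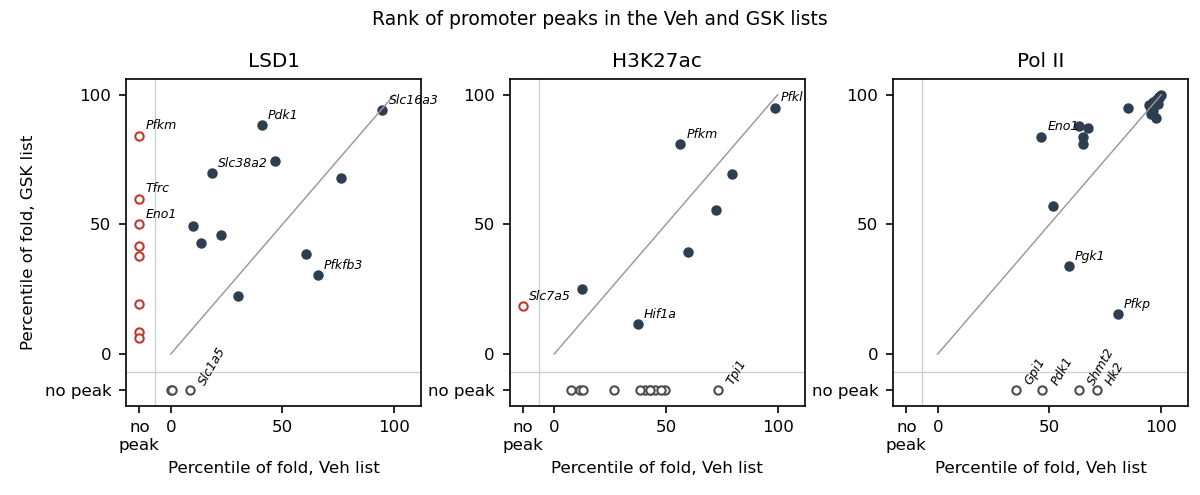
Percentile of fold within the GSK list (vertical axis) against that in the Veh list (horizontal axis) for promoter peaks of LSD1, H3K27ac and Pol II. Filled points are genes called in both lists, open points genes called in 1 list only, set at "no peak" on the axis of the list that lacks them, and the line marks equal ranks. Open red points number 8 for LSD1 (GSK only), and open grey points number 12 for H3K27ac and 4 for Pol II (Veh only).

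LSD1 and Pol II summits stood at different places. The Pol II summit was within 300 bp of the nearest TSS at 27 of 29 genes in Veh and 22 of 25 in GSK, with medians of 68 and 69 bp downstream. LSD1 summits were within 300 bp at 5 of 14 genes in Veh and 9 of 19 in GSK. Their medians were 270 and 339 bp downstream, and 8 of 14 and 14 of 19 were downstream of the TSS. The LSD1 summits farthest upstream in Veh were those of Slc16a1 (-458 bp) and Myc (-331 bp).

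**Figure D5:**
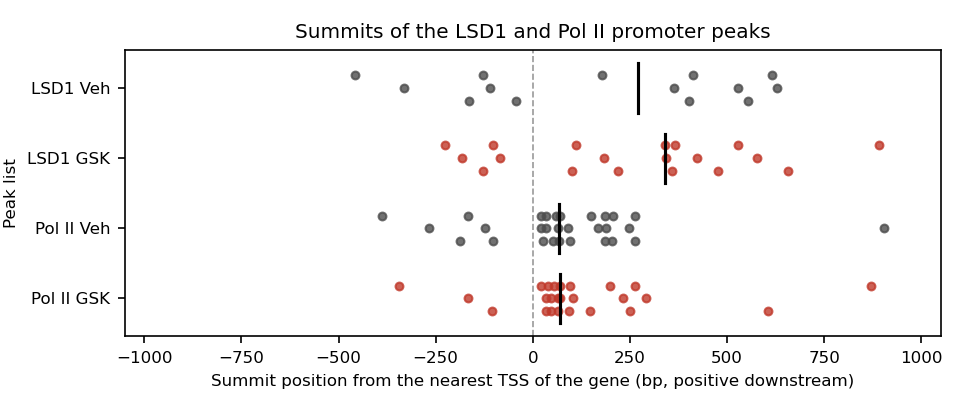
Summit position in bp from the nearest TSS of the gene (horizontal axis, positive downstream) for each LSD1 and Pol II promoter peak in Veh (grey) and GSK (red); black bars are medians. Pol II summits cluster just after the TSS, at medians of 68 and 69 bp, and LSD1 summits spread to both sides with medians of 270 and 339 bp.

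Among the substrates of LSD1, H3K4me1 was the more frequent at these promoters. It was called at 14 genes in Veh (30.3% of all genes) and 16 in GSK (36.8%). No gene was called in Veh only (3.41% of all genes and 5.85% of those with Veh H3K4me3), and Tpi1 (fold 3.09) and Pfkfb3 (3.36) were called in GSK only (9.85% and 16.2%). The median percentile was 45.8 in Veh and 47.1 in GSK, beside 59.2 and 60.2 over all genes with a peak. Slc16a3, with folds of 3.70 and 4.59, and Pdk1, with 3.94 and 4.48, were the highest in GSK, at percentiles 79.6 and 76.0. Slc1a5 led in Veh at 4.33 and had 3.94 in GSK. Rank was higher in GSK at 9 of the 14 shared genes, beside 54.5% of all genes called in both lists.

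H3K4me2 was called at 10 genes in Veh (39% of all genes) and 3 in GSK (28.2%), under the 73.3% and 53% of genes with Veh H3K4me3. The Veh-only genes were Slc3a2, Slc16a1, Hk1, Gapdh, Ldha, Ldhb, Pdk1 and Pfkfb3 (12.8% of all genes and 23.4% of those with Veh H3K4me3), with folds from 3.07 at Slc16a1 to 5.08 at Ldhb. Pfkm (4.86 and 4.79) and Pfkfb4 (5.19 and 5.84) kept a call in both lists, and Pfkp (5.61) was called in GSK only (1.93% and 3.11%). The Veh list held 15219 peaks and the GSK list 9437. With the Veh list shortened to 9437 peaks, 5 genes were called in Veh and 3 in Veh only, compared with 8 at full length.

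H3K27ac was called at 19 genes in Veh (20.5% of all genes) and 8 in GSK (8.58%). The Veh-only genes numbered 12 (12.3% of all genes and 24.3% of those with Veh H3K4me3) and Slc7a5 was the only member called in GSK alone (0.332% and 0.665%), with a fold of 4.28. Its −log10 p of 6.63 was near the foot of the GSK list, which starts at 6.47. The call was lost with windows of 500 bp and at a −log10 q of 5 or more. The GSK list held 2751 peaks and the Veh list 7410, and this antibody had the largest gap in read pairs between the treatments. With the Veh list shortened to 2751 peaks by −log10 p, 8 genes were called in each treatment. Aldoa, Tpi1 and Ldha were then called in Veh only and Slc7a5, Pkm and Mthfd2 in GSK only, beside 3.39% and 2.94% of all genes. Of all genes, 9.03% were then called in Veh and 8.58% in GSK. The shortening thus evened the counts by construction, and the equal numbers say nothing about a difference between the treatments.

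Pfkl, the liver phosphofructokinase, had the highest H3K27ac rank of these promoters in both treatments, with folds of 6.72 in Veh and 6.79 in GSK, at percentiles 98.73 and 95.02. Hk1 followed with 4.57 and 5.34, Slc38a2 with 4.339 and 4.997, Mthfd2 with 4.07 and 4.72 and Pfkm with 4.01 and 5.69. Hif1a had 3.71 and 4.06, and Pkm 3.22 and 4.46. All 7 genes called in both lists had the higher fold in GSK, as did 89.5% of the 2159 genes called in both, so the direction was common to all genes. The percentile was higher in GSK at 2 of the 7, with a median change of -10.3 points, beside 32.1% and -6.70 points over all genes called in both. The Veh-only genes had folds of 4.37 at Tpi1, 3.90 at Slc3a2, 3.87 at Ldha, 3.83 at Aldoa, 3.79 at Tfrc and Shmt2, 3.76 at Pgam1, 3.72 at Pdk1, 3.54 at Gapdh, 3.23 at Myc, 3.18 at Eno1 and 3.02 at Pfkp. Neither list held H3K27ac at the promoters of Slc2a1, Slc2a3, Slc1a5, Slc16a1, Slc16a3, Hk2, Gpi1, Pgk1, Ldhb, Pfkfb3 and Pfkfb4. Several of these, Slc2a1 and Slc1a5 among them, were near the top of the Pol II lists. Just beyond the Slc1a5 window, 1.68 kb downstream of the TSS, lay an H3K27ac peak in Veh only, with a fold of 3.31.

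Few promoters carried every antibody. Pdk1 was called by all 6 in Veh and by 3 in GSK, where H3K4me2, H3K27ac and Pol II were not called and its LSD1, H3K4me1 and H3K4me3 folds were higher. Pfkm was called by all 6 in GSK, where LSD1 joined the other 5, but only over its start sites together. H3K27ac and Pol II lay at the one near Senp1, and H3K4me1 and H3K4me2 at others. In all genes 3.73% were called by all 6 in Veh and 1.16% in GSK. Calls by 5 or 6 antibodies were found at 7 of the 31 genes in Veh and 2 in GSK, beside 14.5% and 8.61% of all genes. At the other end Hk2, Gpi1 and Shmt2 carried H3K4me3 alone in GSK. Hk2 had only H3K4me3 and Pol II in Veh, and Hif1a carried H3K4me3, H3K27ac and Pol II in both treatments and nothing else.

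The remaining values of the best known members show how differently promoters with strong Pol II were marked. Slc2a1 and Slc2a3 shared H3K4me3 (5.324 in Veh and 5.104 in GSK, and 5.44 and 5.94) and H3K4me1 (2.54 and 2.53, and 4.12 and 3.82) and had no H3K4me2 or H3K27ac promoter peak. Ldha added H3K4me2 in Veh (3.98) to an H3K4me3 peak of 4.62 and 4.57, and had no H3K4me1. Slc7a5 carried H3K4me3 (3.67 and 3.72) and Pol II, with H3K27ac in GSK only, near the foot of that list by −log10 p. Hif1a combined H3K4me3 folds of 3.67 and 3.93 with Pol II folds of 8.89 and 6.25, and Hk2 had H3K4me3 folds of 3.88 and 3.99.

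Gene bodies were examined beyond 1 kb of any TSS of the gene, over 834 kb in all, and were marked mainly by H3K4me1. A body peak of H3K4me1 lay in 28 genes in Veh and 30 in GSK, beside 40.3% and 46.1% of the 23164 genes with such a body. LSD1 lay in 11 and 10 (20.9% and 18.9%), H3K4me2 in 14 and 6 (21.7% and 11.7%), H3K27ac in 10 and 1 (6.87% and 2.29%) and Pol II in 8 and 5 (13.5% and 13.1%). H3K4me3 reached into 27 bodies in each treatment (23.4% of genes in each), mostly as the end of a wide promoter peak, since 5 and 6 genes had one that did not touch the promoter. Body peaks clear of the promoter lay in 5 and 1 genes for H3K27ac and in 6 and 3 for Pol II. For H3K4me1 these counts were 27 and 29, for LSD1 11 and 8, and for H3K4me2 13 and 6. With the Veh H3K27ac list at the length of the GSK list, 3 bodies carried Veh H3K27ac. Of 49 Veh H3K4me1 body peaks that did not touch a promoter, 43 were overlapped by a GSK peak, whereas 5 of 19 LSD1 peaks were. Neither the peaks clear of the promoter nor these overlaps were counted over all genes, so they do not set the members apart.

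The bodies of Slc2a1 and Slc2a3 held peaks clear of the promoter for all 6 antibodies in Veh and for 5 in GSK. In Slc2a1, 18.2 kb downstream of the TSS, at chr4:119126251-119127626, lay a Veh H3K27ac peak with a fold of 3.34, overlapped in GSK by a peak of 4.01. H3K4me3 peaks of 3.63 in Veh and 3.95 in GSK and Pol II peaks of 4.02 and 3.10 overlapped the same stretch, which has no annotated TSS within 1 kb. LSD1 was called there in Veh only, by a peak with a fold of 4.51 inside the stretch and by 1 with a fold of 4.40 just upstream of it. H3K27ac, not called at the Slc2a1 promoter in either list, was thus called inside the gene.

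Other body peaks lay near starts that the promoter windows did not use. In Slc2a3, a region at -58.9 kb from the curated TSS, chr6:122800927-122802414, carried H3K4me3 (fold 5.251 in Veh and 6.003 in GSK), LSD1 (4.31 and 5.41) and Pol II (5.09 and 3.61), at the start of a predicted Slc2a3 transcript. H3K4me2 (4.58 and 4.65) was also called there, and H3K27ac in Veh only (4.04). A further H3K4me3 peak with LSD1 lay at -22.1 kb, with LSD1 folds of 3.99 and 5.66. In Mthfd2 the strong Pol II body peak (8.50 and 6.47) lay within 1 kb of the start of the neighbour Mob1a. Pfkfb3 held 4 LSD1 body peaks in Veh and 3 in GSK, among them 1 at chr2:11534933-11536008 under an H3K4me3 peak of 6.88 in Veh and 8.25 in GSK, with no annotated TSS within 1 kb. In Myc, LSD1 was called 2.21 kb downstream of the TSS in GSK only, with a fold of 2.74 at percentile 0.502.

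Other genes of these pathways were read from 2 lists. The 30 genes used in many tissues, such as the pentose phosphate enzymes G6pdx, Pgd, Tkt and Taldo1, the pyruvate carriers Mpc1 and Mpc2 and the serine synthesis enzymes Phgdh, Psat1 and Psph, had H3K4me3 at 30 of 30 promoters in both treatments. Their H3K4me3 ranks were higher than those of the 31 genes, with median percentiles of 60.7 in Veh and 59.9 in GSK, and their Pol II ranks lower, at 82.4 and 81.2. LSD1 was called at 22 of 30 in each treatment, H3K4me2 at 22 in Veh and 17 in GSK, Pol II at 24 and 21, and H3K27ac at 13 and 6. Of 20 isozymes and transporters of other tissues, such as Pklr and Slc2a2, H3K4me3 was called at 5 in Veh, which were Aldoc, Eno2, Eno3, Pfkfb1 and Slc2a4, and at 4 in GSK, without Eno3. Pol II was called at 2 of the 20 in Veh and 1 in GSK.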

How the data were processed

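ChIP-seq libraries of cultured CD8+ T cells, 1 for each of 6 antibodies in each of 2 treatments, were read as 12 peak lists, taken by group from the sample labels. Per the labels and the study's methods, reads with a unique position on mm10 were kept by the authors after alignment with Bowtie2, duplicates were removed, and MACS2 called peaks against input at a p cutoff of 0.001, in each library alone. The study also describes random picking of reads to equal numbers for comparing signals. Whether the deposited peaks were called on such reads is not clear. The deposited fold enrichment is the ratio of ChIP signal to local background. Each deposited peak further carries a −log10 q, a −log10 p, a score that is 10 times 1 of these cut to a whole number and, for LSD1 and Pol II, a summit. The score and q served only for filters in alternatives or not at all. Narrow peaks were called for Pol II and LSD1 and start at a −log10 p of about 3.00, and broad regions were called for the histone marks and start at a −log10 q of about 3.01, so the latter are stricter. The lists carry no read numbers per peak, so no counting interval was given. The study lists unique read pairs for each library, and these were used here only to state which treatment had more and where the gap was large or small.

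The 31 genes, the gene lists and the motifs were chosen with earlier results of these data known. Curated RefSeq transcripts of GRCm38.p6 gave 31645 promoters of 26180 genes. Overlaps, percentiles and motifs were computed in Python 3 with NumPy, and the overlap code was tested on simulated data. Every member was named with its promoter calls, and values were given by a written rule for members called in 1 treatment only, for the 5 highest ranks in Veh and for Myc, Hif1a, Slc2a1, Slc2a3, Slc7a5, Hk2 and Ldha. No test was run, since each group held 1 library. The inputs were not used here. Alternatives varied the promoter window, the overlap, the q level, the list length, the transcripts, the TSS and the ranking value.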

Additional observations from a re-analysis of the deposited data

How the results depend on the processing

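Counts of genes were taken as kept when within 1.5 times the reported count, and medians when within the interval of the reported median. Of 228 alternative values 184 were kept, among them 44 of 48 medians. Each interval ran between percentiles of the called member genes, so it reflects spread among genes and not between libraries. It was wide, from 8.83 to 65.8 for the 14 genes with Veh LSD1. For GSK H3K4me2 it was the full range of 3 genes, 41.6 to 80.4. A kept median is therefore a weak sign of stability. At a −log10 q of 5 or more, promoter calls of LSD1 fell to 4 in Veh and 9 in GSK, H3K4me1 to 8 in Veh (6 in GSK only), H3K4me2 to 5 in Veh (4 in Veh only), H3K27ac to 3 in GSK (0 in GSK only) and Pol II to 19 in Veh, with 2 in Veh only and 4 in GSK only. H3K4me3 then gave 1 gene in GSK only. Shares of all genes were not counted at that level. Body calls at that level were 5 and 3 for LSD1, 5 and 2 for H3K4me2, 3 and 3 for Pol II in Veh and GSK, and 0 for GSK H3K27ac.

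Windows of 500 bp gave H3K4me1 at 8 genes in Veh and 9 in GSK, with 1 in Veh only, and H3K27ac in GSK only at 0. Windows of 2.5 kb gave H3K4me1 at 25 and 26, with 1 in GSK only, and H3K4me2 at 17 and 7. At equal list length, promoter H3K4me2 was called at 5 genes in Veh (3 in Veh only) and H3K27ac at 8 (3 in Veh only and 3 in GSK only), H3K4me1 at 2 in Veh only, and Veh body calls were 6 for H3K4me2 and 3 for H3K27ac. An overlap of 200 bp gave 5 genes with H3K4me1 and 3 with Pol II in GSK only, and Pol II in 4 and 2 bodies in Veh and GSK. Ranked by −log10 p, the median percentile was 60.4 for GSK H3K4me1, 71.4 for Veh H3K4me3 and 73.5 for GSK H3K4me3. Ranked among promoter peaks, it was 87.8 for GSK Pol II. Fewer peaks or a different window made these differences by construction, and otherwise the cause was not tested. No paired analysis was possible because each antibody and treatment had 1 library, and no replicate could be left out.

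Limits apply to every comparison. Differences between single libraries can include those of depth, which was not equalised here other than by list length. A gene without a peak is one without a call at the cutoff and not one without enrichment. Windows of Slc7a5, Slc3a2, Hk1 and Pfkm hold the start of another gene.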
